A study of Mus musculus with 11 samples.

Results

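The genes described here encode the machinery that cuts proteins into peptides and shows them on MHC class I molecules. They are the classical class I heavy chains H2-K1 and H2-D1, the light chain B2m, the peptide transporter subunits Tap1 and Tap2, the loading factor Tapbp, the immunoproteasome subunits Psmb8, Psmb9 and Psmb10, and the transcriptional activator Nlrc5. They were taken by name from a table of 55487 mouse genes, and all 10 were listed, each under 1 identifier. RNA had been measured by bulk RNA sequencing in 11 libraries. MC38, a mouse colon carcinoma line, carried either a control short hairpin RNA (shNC, genotype label WT) or a hairpin against Fgf21 (shFgf21, genotype label FGF21 Knockdown). The series asked how FGF21 secreted by tumour cells acts on T cells in the tumour. T cells sorted from such tumours, labelled as immune cells, gave 3 shNC and 2 shFgf21 libraries. Libraries labelled as tumour, as the MC38 line and as mesenchymal cells gave 3 for each hairpin. The hairpin was in the tumour cells, so T cells would meet it only through their host tumour. The labels give no age, sex, time or treatment, and name no promoter behind the hairpin. The title of each sorted library joins 2 or 3 animal-like numbers, with no statement of pooling. Some of these numbers recur in the tumour titles, and whether sorted and tumour libraries share animals is not stated. Tests across the kinds of sample treated the libraries as independent. The genotype label of shFgf21 sorted replicate 2 names FGF22, but its title follows the pattern of the other shFgf21 library, by which it was grouped.

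Library totals ran from 14944013 to 19099350 counts. Fgf21, the target of the hairpin, had 0 counts in 9 libraries, 2 counts in shNC tumour replicate 2 and 1 count in shNC tumour replicate 6, so the knockdown could not be checked at this depth. The labelled cell types did not all show in their markers. Cd3e, which defines T cells, stood at 32.28 to 67.62 CPM (counts relative to the TMM-scaled library total) in the sorted libraries, while the macrophage gene Lyz2 stood at 5768 to 9425 CPM there. The 12 macrophage and monocyte markers summed to 11244 to 13651 CPM (marker sums here are relative to the plain library total) in shNC and 16808 to 17893 in shFgf21 sorted libraries, against 401 to 786 and 438 to 519 for the 15 T cell markers. In the tumour libraries Cd3e had 0 counts throughout, the leukocyte gene Ptprc was at most 0.974 CPM, and the macrophage markers summed to at most 50.8. The 6 fibroblast markers summed to 3610 to 4599 CPM in shNC and 3643 to 3945 in shFgf21 sorted libraries. In tumour libraries they summed to 6212 to 7915 in shNC and 4554 to 6165 in shFgf21. Whether the sorted libraries hold tumour cells with the hairpin was not tested. The sorted libraries are therefore called sorted cells below. A change in a bulk library can come from more or fewer cells of a type or from more or less RNA per cell, and these cannot be told apart.

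In every nucleated cell, proteasomes degrade cytosolic proteins, and interferon gamma replaces 3 of their catalytic subunits with Psmb8, Psmb9 and Psmb10 to form the immunoproteasome. Tap1 and Tap2 together pump the peptides into the endoplasmic reticulum, where Tapbp (tapasin) bridges the transporter to an empty heavy chain paired with B2m and helps it to take up a peptide. The loaded complex travels to the surface, where CD8+ T cells read it. Nlrc5 works as a coactivator on an assembly of RFX, CREB/ATF and NF-Y proteins at class I promoters, and tumour cells with less of it display less class I.

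On the mm10 coordinates of the deposited table, 7 of the 10 genes lie on chromosome 17 in the MHC region. Tapbp covers 33915899 to 33929292 and H2-K1 33996017 to 34000347. Psmb9 (34181987 to 34187764), Tap1 (34187553 to 34197225), Psmb8 (34197721 to 34201454) and Tap2 (34203527 to 34216321) follow one another directly, and H2-D1 lies at 35262730 to 35267499. B2m is on chromosome 2 at 122147686 to 122153083. Nlrc5 (94434356 to 94527272) and Psmb10 (105935735 to 105938444) are on chromosome 8. Psmb9 and Tap1 overlap by 212 bases at their starts. Tapbp overlaps Zbtb22 by 3422 bases, and the counts of Zbtb22 were 7.72% of those of Tapbp. The strand setting of the counting is not given in the sources used here, so reads from such overlaps cannot be assigned with certainty. Near-identical copies touched the heavy chains most, with 5.4% of the 75-base words of H2-D1 and 3.1% of those of H2-K1 also found in another gene.

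The promoter stretches of the heavy chains and B2m are shown because these genes share elements on which Nlrc5 and interferon act. RefSeq windows of 300 bases (GRCm38.p6) were matched for 8 of the 10 genes, not for Tap2 and Nlrc5. H2-K1 had 2 windows listed, and the distances below depend on the start site of the window used for each gene. Capitals mark an interferon-type element at the left end (TTTCNNTTC, or GAAA repeated after a gap of 2 bases), the CRE core TGACG in the middle and the CCAAT box, read here as ATTGG, at the right end. The H2-K1 stretch is chr17:34000359-34000437 on the minus strand, from 90 to 12 bases before the start site. The H2-D1 stretch is chr17:35262944-35263022 on the plus strand, from 150 to 72 bases before it. The B2m stretch is chr2:122147548-122147638 on the plus strand, from 139 to 49 bases before it.
H2-K1: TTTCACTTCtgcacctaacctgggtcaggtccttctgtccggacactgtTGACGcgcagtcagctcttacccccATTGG
H2-D1: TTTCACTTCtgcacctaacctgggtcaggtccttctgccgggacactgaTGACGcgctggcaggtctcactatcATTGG
B2m: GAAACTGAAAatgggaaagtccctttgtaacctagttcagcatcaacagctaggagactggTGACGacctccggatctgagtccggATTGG

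The H2-K1 and H2-D1 stretches were identical at 69 of 79 bases (87.3%). Within these stretches all 3 genes carried an interferon-type element, TGACG and ATTGG in the same order, though the interferon-type pattern of B2m was another. Further copies lay in the windows outside the stretches, a CCAAT box in each heavy chain and a CRE core in B2m. Searched on both strands, TGACG was in the windows of 5 of the 8 genes against 20.8% of 32851 mouse promoter windows of the same length. CCAAT was in 6 of 8 against 37.4%. The 8 windows are not independent, so these shares cannot be compared as separate promoters. The windows of Tap1 and Psmb9 overlap and hold the same TGACG and the same CCAAT on opposite strands. The heavy chain stretches are near copies of each other. The GAAA repeat was in B2m alone of the 8, against 3.44% of all windows. The gamma-activated site TTCNNNGAA was in Psmb8 alone, against 8.3%. TTTCNNTTC, added to the search after the windows had been read, was in both heavy chains and no other of the 8, against 7.52%. The GAAA repeat and TTTCNNTTC, read on opposite strands, can overlap.

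Tap1 and Psmb9 overlap by 212 bases on the deposited coordinates. By the RefSeq windows they share a promoter between divergent starts, which lie 226 bases apart. It is shown because a single stretch serves a transporter gene and an immunoproteasome gene, 2 steps of the same pathway. The stretch is chr17:34187306-34187580, written on the plus strand from 250 bases before the start of Tap1 to 25 bases after it, with a CCAAT box and a CRE core in capitals.
Tap1 and Psmb9: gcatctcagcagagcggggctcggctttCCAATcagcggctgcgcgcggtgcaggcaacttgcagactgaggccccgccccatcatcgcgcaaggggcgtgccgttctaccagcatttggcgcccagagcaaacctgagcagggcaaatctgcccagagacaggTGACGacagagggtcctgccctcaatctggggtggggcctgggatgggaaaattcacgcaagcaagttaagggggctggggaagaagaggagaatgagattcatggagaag

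Together the 10 genes took 1.1% to 1.14% of all counts in the shNC sorted libraries and 1.18% and 1.31% in the shFgf21 ones. In tumours their share was 0.76% to 1.05% with shNC and 0.965% to 1.19% with shFgf21. Per kilobase of merged exons, B2m was the highest of the 10 at a mean of 3643 CPM per kb over the 11 libraries, and it exceeded H2-D1 in each library. H2-D1 followed at 1635 CPM per kb, H2-K1 at 709.5 and Tapbp at 137.6, and each of these exceeded the next in 11 of 11 libraries. Psmb10 (54.9 CPM per kb), Tap1 (50.87) and Psmb8 (47.64) were not separated, since Psmb10 exceeded Tap1 in 7 libraries and Tap1 exceeded Psmb8 in 6. Psmb8 exceeded Tap2 (40.23 CPM per kb) in 10 libraries. Tap2 exceeded Nlrc5 (24.43 CPM per kb) in all of them, and Nlrc5 exceeded Psmb9 (21.06) in 9. The pump and the immunoproteasome thus sat more than an order of magnitude below the heavy chains in mean CPM per kb. The order of Psmb10, Tap1, Psmb8 and Tap2 differs in the deposited FPKM values, whose lengths count overlapping exons repeatedly, as for H2-K1 with 10612 bases against 2938 merged.

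**Figure D1:**
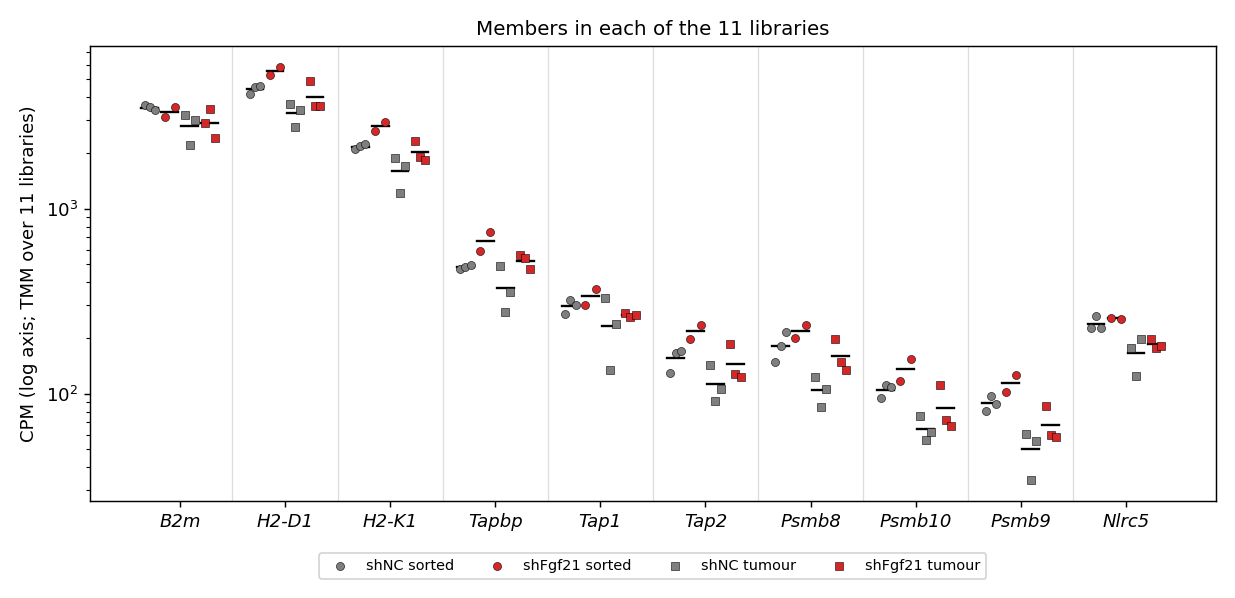
Level of each of the 10 genes in CPM (log axis, TMM over 11 libraries), with 1 point per library and a bar at each group mean, circles for sorted cells and squares for tumours, grey for shNC and red for shFgf21. B2m and the heavy chains lie above 1000 CPM in all 11 libraries, and the shNC tumour library lowest for each gene is replicate 2.

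In sorted cells, 9 of the 10 genes were higher with shFgf21 than with shNC, by up to 0.46 on the log2 scale, and B2m was lower, while 48.2% of all genes were higher. None passed an adjusted p of 0.05 in edgeR's quasi-likelihood test, where 13 of 16454 genes passed (0.0790%). The median log2 difference was 0.328 over the 10 genes and -0.0105 over all genes tested. An unadjusted p under 0.05 was reached by 6 of the 10, H2-K1, H2-D1, Tap2, Tapbp, Psmb9 and Psmb10, all higher, against 5.89% of all genes in that direction. The same 6 did not overlap between the groups, against 16.6% of all genes higher without overlap. By DESeq2, Tapbp passed with an adjusted p of 0.0425, where 1.47% of genes passed.

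The heavy chains stood higher in both shFgf21 sorted libraries. H2-K1 was at 2090, 2176 and 2224 CPM in shNC against 2626 and 2961 CPM in shFgf21. These groups did not overlap, and the log2 difference was 0.35 ± 0.11 (SE, edgeR adjusted p = 0.313). H2-D1 was at 4172, 4544 and 4585 CPM in shNC against 5279 and 5866 CPM in shFgf21. It did not overlap either, with a log2 difference of 0.31 ± 0.11 (adjusted p = 0.389). B2m, the chain that both need to fold, was at 3632, 3526 and 3411 CPM in shNC against 3132 and 3542 CPM in shFgf21. The B2m groups overlapped, with a log2 difference of -0.098 ± 0.11 (adjusted p = 0.778).

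Of the loading genes, Tapbp was separated most clearly. It was at 474, 486.4 and 496.9 CPM in shNC sorted cells against 594 and 750 CPM in shFgf21, a log2 difference of 0.45 ± 0.12 (adjusted p = 0.266). Tap2 was at 129.6, 166.4 and 169.7 CPM in shNC against 197.3 and 236.4 CPM in shFgf21, a log2 difference of 0.46 ± 0.14 (adjusted p = 0.313). Its partner Tap1 was at 271, 320.5 and 300.7 CPM in shNC against 303 and 369.7 CPM in shFgf21. Unlike Tap2 it overlapped between the groups, with a log2 difference of 0.16 ± 0.12 (adjusted p = 0.672). Whether Tap1 and Tap2 differed in this respect was not tested.

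Of the immunoproteasome subunits, Psmb9 and Psmb10 were separated between the groups. Psmb9 (the beta1i subunit) was at 80.83, 96.81 and 88.28 CPM in shNC sorted cells against 102.1 and 126.6 CPM in shFgf21, a log2 difference of 0.35 ± 0.13 (adjusted p = 0.378). Psmb10 (beta2i) was at 94.39, 112 and 108.4 CPM in shNC against 116.5 and 153.9 CPM in shFgf21, a log2 difference of 0.35 ± 0.14 (adjusted p = 0.414). Psmb8 (beta5i) was at 147.3, 181.6 and 214.6 CPM in shNC against 199.1 and 235.9 CPM in shFgf21. Psmb8 overlapped between the groups, with a log2 difference of 0.24 ± 0.16 (adjusted p = 0.615). Nlrc5, the activator, was at 227.6, 263.9 and 226.4 CPM in shNC against 257.2 and 253.2 CPM in shFgf21, a log2 difference of 0.073 ± 0.10 (adjusted p = 0.83). Both shFgf21 values of Nlrc5 lay within the shNC range.

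Markers of several cell types differed between the same sorted groups, with none past an adjusted p of 0.05. All 12 macrophage markers were higher in shFgf21 sorted cells, with a median log2 difference of 0.542, while 48.2% of all genes were higher. An unadjusted p under 0.05 in edgeR was reached by 8 of the 12, against 5.89% of all genes in that direction. Of the 15 T cell markers 12 were lower (median -0.398), as were 5 of 6 NK cell markers (median -0.883) and 4 of 6 neutrophil markers (median -1.98). Both tested epithelial markers, Cdh1 and Epcam, were lower too (median -1.15), but they do not mark the MC38 libraries. Cdh1 was at 15.21 to 41.08 CPM in sorted and 2.083 to 4.669 CPM in tumour libraries. Epcam had 8 counts in shNC tumour replicate 1 and 0 in every other tumour library. The part of these cell types in the class I differences was not tested. The size of the difference moved with 1 library. Without shFgf21 sorted replicate 2 the median of the 10 genes was 0.164, and without replicate 1 it was 0.408. In both cases 9 of the 10 were higher.

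**Figure D2:**
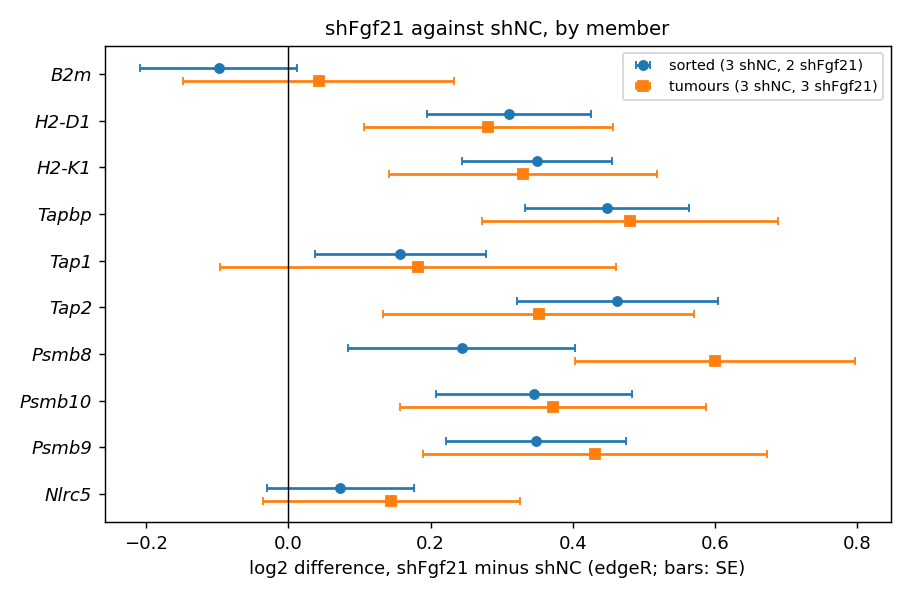
Log2 difference, shFgf21 minus shNC, for each of the 10 genes in sorted cells (blue circles, 3 shNC and 2 shFgf21 libraries) and in tumours (orange squares, 3 and 3), with bars of 1 SE from edgeR. In sorted cells B2m alone lies below 0, and in tumours Psmb8 has the largest difference at 0.60.

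In tumour libraries, all 10 genes were higher with shFgf21 than with shNC, from 0.042 for B2m to 0.60 for Psmb8 on the log2 scale, while 48.8% of all genes were higher. The median was 0.341 against -0.00713 over all genes tested. None passed an adjusted p of 0.05, where 5 of 14950 genes passed (0.0334%), and DESeq2 called none of the 10 (0.770% of all genes). Psmb8 and Tapbp had an unadjusted p under 0.05, against 2.61% of all genes in that direction. Psmb8 alone did not overlap between the groups, against 5.86% of all genes. The defining markers of leukocytes and macrophages, Ptprc and Csf1r, were at most 0.974 and 0.685 CPM in these libraries, with macrophage marker sums of 36.7 to 50.8 CPM in shNC and 36.7 to 42.4 in shFgf21. Of the 6 fibroblast markers 5 were lower with shFgf21 (median log2 difference -0.749), 4 of them with an unadjusted p under 0.05 against 3.61% of all genes in that direction, and none passed the adjusted threshold. The 3 endothelial markers tested were also lower (median -1.4), none of them past it. Endothelial counts were low and highest in shNC replicate 1. In shNC replicates 1, 2 and 6 Pecam1 had 81, 25 and 12 counts, Cdh5 67, 21 and 3, and Tie1 42, 3 and 9. In shFgf21 tumours they had 11, 23 and 10, then 8, 10 and 10, then 13, 12 and 14. The shNC tumour replicate 1 also stood apart in the collagen gene Col1a2, at 1025 CPM against 163.9 and 163.4 in shNC replicates 2 and 6. The part of these markers in the class I differences was not tested.

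Psmb8 was at 123.7, 84.91 and 105.4 CPM in shNC tumours against 198, 147.5 and 133.6 CPM in shFgf21, a log2 difference of 0.60 ± 0.20 (edgeR adjusted p = 0.67). Psmb9 was at 60.54, 34.1 and 55.15 CPM in shNC against 85.22, 60.01 and 58.14 CPM in shFgf21, a log2 difference of 0.43 ± 0.24 (adjusted p = 0.857). Psmb10 was at 75.42, 55.87 and 61.69 CPM in shNC against 112, 72.28 and 67.22 CPM in shFgf21, a log2 difference of 0.37 ± 0.22 (adjusted p = 0.866). For all 3 subunits the highest library was shFgf21 replicate 1, and the ranges of Psmb9 and Psmb10 overlapped.

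Tapbp was at 488, 276.4 and 353.7 CPM in shNC tumours against 561.3, 539.9 and 469.9 CPM in shFgf21, a log2 difference of 0.48 ± 0.21 (adjusted p = 0.801). Only shNC replicate 1 reached the shFgf21 range. Tap2 was at 142.5, 90.69 and 105.5 CPM in shNC against 185.1, 127 and 123.2 CPM in shFgf21, a log2 difference of 0.35 ± 0.22 (adjusted p = 0.881). Tap1 was at 327.6, 134.1 and 237.8 CPM in shNC against 273.2, 261.1 and 265.5 CPM in shFgf21, a log2 difference of 0.18 ± 0.28 (adjusted p = 0.957). The shNC libraries of Tap1 spread around the shFgf21 libraries on both sides.

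H2-K1 was at 1888, 1211 and 1691 CPM in shNC tumours against 2320, 1901 and 1841 CPM in shFgf21, a log2 difference of 0.33 ± 0.19 (adjusted p = 0.86). H2-D1 was at 3666, 2770 and 3428 CPM in shNC against 4894, 3591 and 3585 CPM in shFgf21, a log2 difference of 0.28 ± 0.17 (adjusted p = 0.881). Both heavy chains overlapped through shNC replicate 1. B2m was at 3219, 2212 and 3020 CPM in shNC against 2904, 3459 and 2402 CPM in shFgf21, and Nlrc5 was at 177.1, 124.8 and 197.1 CPM in shNC against 196.8, 177 and 181.5 CPM in shFgf21. For B2m the log2 difference was 0.042 ± 0.19 (adjusted p = 0.989) and for Nlrc5 it was 0.14 ± 0.18 (adjusted p = 0.941), each within the spread of the libraries.

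The same tumour library was lowest or highest for most of the 10 genes. Within shNC tumours, replicate 2 was the lowest for 10 of 10 genes, although only 35.7% of the 9751 genes with a mean of at least 10 CPM were lowest there. Within shFgf21 tumours, replicate 1 was the highest for 9 of 10, against 42.5% of genes. Relative to the shNC mean, the median log2 deviation of the 10 genes was -0.352 in shNC replicate 2, 0.262 in shNC replicate 1 and 0.089 in shNC replicate 6. It was 0.607, 0.266 and 0.191 in shFgf21 replicates 1, 2 and 3, so shNC replicate 1 lay at about the level of shFgf21 replicate 2. Without shNC replicate 2, 7 of the 10 genes were higher and their median log2 difference was 0.198. Without shFgf21 replicate 1 the median was 0.156, and without shNC replicate 1 it was 0.513. Sorted libraries showed such shifts too. There shNC sorted replicate 1 was the lowest of its group for 8 of 10 genes, against 34.8% of genes. The shFgf21 sorted replicate 2 was the higher of its group for 9 of 10, against 54.1%.

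**Figure D3:**
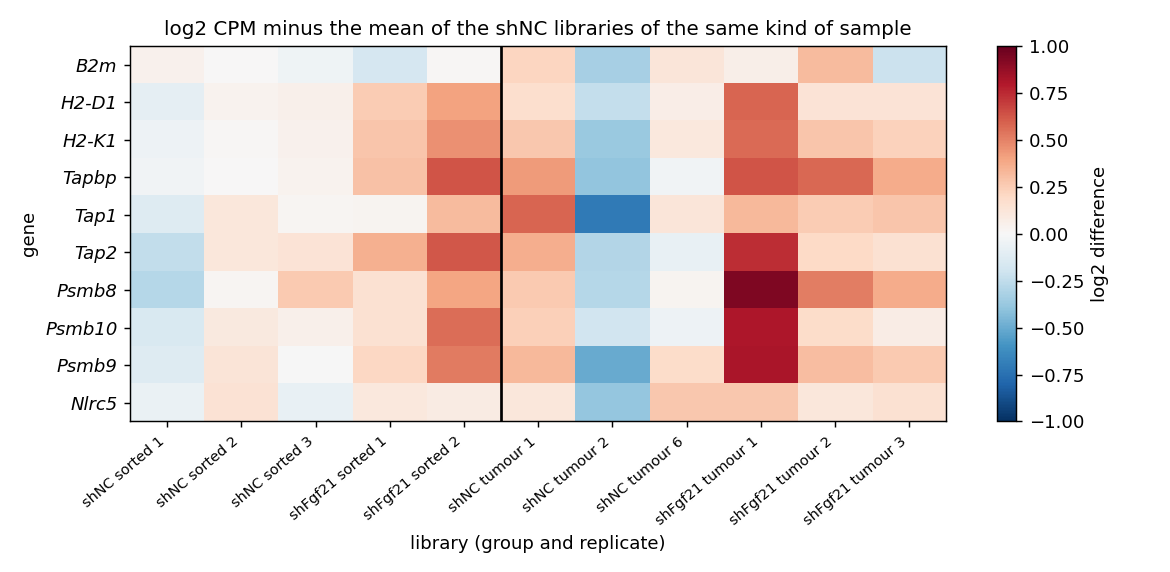
Log2 CPM of each of the 10 genes (rows) in each library (columns) minus the mean of the shNC libraries of the same kind of sample, with red above and blue below that mean and a line between sorted cells and tumours. The column of shNC tumour replicate 2 is blue for all 10 genes, and the column of shFgf21 tumour replicate 1 holds the largest deviation, 0.937 for Psmb8.

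A test of the difference between the knockdown effects in sorted cells and in tumours, in a fit of all 11 libraries, called none of the 10 genes. It called 1 of 17327 genes (0.00577%). DESeq2 called none of the 10 and 0.192% of all genes. None of the 10 had an unadjusted p under 0.05, against 4.77% of all genes. Psmb8 had the largest value, with an effect lower in sorted cells than in tumours by 0.35 ± 0.28 (SE) on the log2 scale (edgeR adjusted p = 1). The median of the 10 was -0.0195 and that of all genes was 0.0196. The intervals are wide, so these values do not show that the effects were equal.

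Between libraries with the control hairpin, all 10 genes were higher in sorted cells than in tumours (48.6% of all genes), and 3 passed an adjusted p of 0.05. At that threshold 31.0% of 16104 genes passed, and 19.1% of those tested passed as higher in sorted cells, so 3 of 10 is near the background. DESeq2 called 5 of the 10, against 32.3% of all genes. The 3 were the immunoproteasome subunits. Psmb9 was higher by 0.83 ± 0.21 on the log2 scale (SE, edgeR adjusted p = 0.0187), Psmb8 by 0.80 ± 0.18 (adjusted p = 0.0127) and Psmb10 by 0.71 ± 0.14 (adjusted p = 0.00672). Their mean levels were 88.64 ± 7.99 against 49.93 ± 14 CPM for Psmb9, 181.2 ± 33.7 against 104.7 ± 19.4 CPM for Psmb8 and 104.9 ± 9.29 against 64.33 ± 10 CPM for Psmb10 (SD, n = 3 and 3).

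H2-D1 was higher by 0.43 ± 0.14 (adjusted p = 0.0523) and Nlrc5 by 0.53 ± 0.18 (adjusted p = 0.0536), just short of the threshold. The log2 differences of H2-K1, B2m, Tap1, Tap2 and Tapbp were 0.33 to 0.46, with adjusted p from 0.0899 to 0.383. In this contrast 7 of the 10 did not overlap, against 25.4% of all genes higher without overlap. The count of called genes fell to 1 without shNC sorted replicate 3, was 2 without shNC sorted replicate 2 and rose to 7 without shNC tumour replicate 1. The gap in class I was small beside that in leukocyte genes, where the 5 leukocyte markers differed by a median of 9.24 on the log2 scale. The 9 MHC class II genes, which present peptides from outside the cell and belong mainly to antigen-presenting cells, all passed, with a median of 3.51.

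The catalytic subunits that Psmb8, Psmb9 and Psmb10 replace are Psmb5, Psmb6 and Psmb7. None of these passed in either knockdown comparison, and their log2 differences were 0.049, 0.13 and 0.096 in sorted cells and -0.082, 0.087 and 0.069 in tumours. The ratio of each immunoproteasome subunit to its counterpart was formed from CPM per kb of merged exons. Psmb8 to Psmb5 was 0.615, 0.683 and 0.719 in shNC sorted cells and 0.813 and 0.743 in shFgf21. It was 0.581, 0.312 and 0.519 in shNC tumours and 0.742, 0.77 and 0.685 in shFgf21 tumours. The shFgf21 libraries lay above the shNC libraries in both kinds of sample.

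Psmb9 to Psmb6 was 0.401, 0.407 and 0.37 in shNC sorted cells and 0.45 and 0.46 in shFgf21. It was 0.437, 0.191 and 0.424 in shNC tumours and 0.412, 0.445 and 0.428 in shFgf21 tumours, where the groups overlapped and shNC replicate 2 stood far below. Psmb10 to Psmb7 was 1.97, 2.09 and 2 in shNC sorted cells and 2.36 and 2.44 in shFgf21. It was 1.71, 1.07 and 1.4 in shNC tumours and 1.76, 1.67 and 1.65 in shFgf21 tumours. On these lengths Psmb10 RNA exceeded that of Psmb7 in each library, and Psmb8 and Psmb9 lay below their counterparts. The order of Psmb10 and Psmb7 depends on the lengths, since the deposited FPKM averaged 22.8 for Psmb10 and 28.4 for Psmb7 over the 11 libraries. Psmb8 was below Psmb5 in the deposited FPKM too, at means of 29.85 and 42.86. Its place also rests on lengths. In CPM, Psmb8 was above Psmb5, with means of 181.2 against 71.26 in shNC sorted cells and 104.7 against 60.99 in shNC tumours.

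The mean log2 ratio over the 3 pairs was -0.304 ± 0.043 in shNC and -0.079 ± 0.011 in shFgf21 sorted cells (SD, n = 3 and 2), a difference of 0.225 (exact two-sided permutation test, p = 0.1). In tumours it was -0.764 ± 0.491 in shNC and -0.306 ± 0.041 in shFgf21 (SD, n = 3 and 3), a difference of 0.457 (exact two-sided permutation test, p = 0.1). Neither design allows a p below 0.1, and in each the shFgf21 libraries all lay above the shNC libraries. Without shNC tumour replicate 2 the tumour difference was 0.178. The choice of lengths shifts the levels of these mean ratios and leaves the differences between groups as they are.

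**Figure D4:**
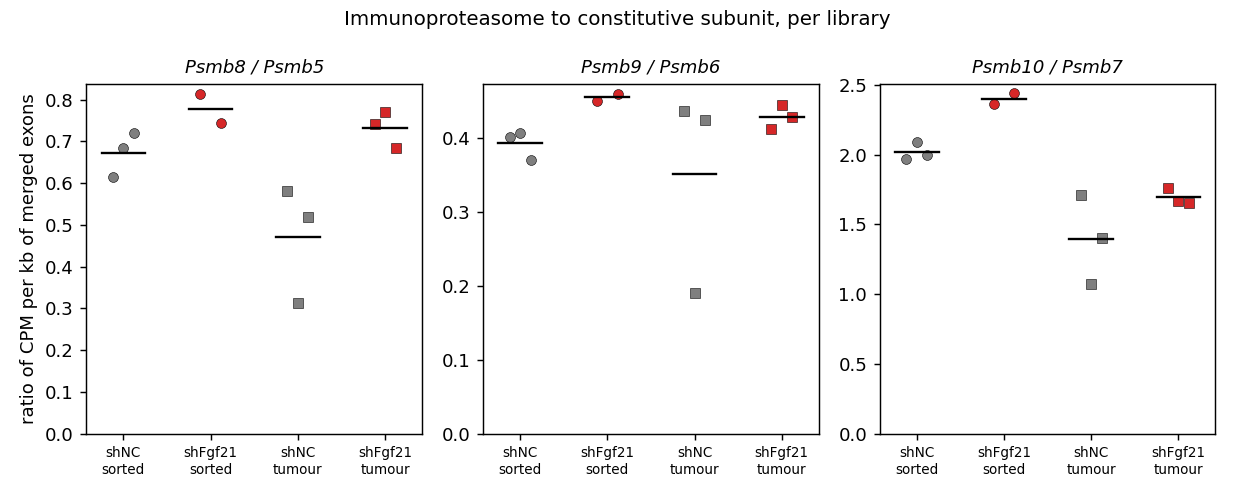
Ratio of each immunoproteasome subunit to the constitutive subunit it replaces, from CPM per kb of merged exons (vertical axes from 0), with 1 point per library and a bar at each group mean, circles for sorted cells and squares for tumours. In shNC tumours replicate 2 is the lowest point of each panel, at 0.312, 0.191 and 1.07.

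The balance of heavy to light chain RNA varied between libraries. The summed CPM of H2-K1 and H2-D1 was 1.72, 1.91 and 2 times that of B2m in shNC sorted cells and 2.52 and 2.49 times in shFgf21 sorted cells. It was 1.73, 1.8 and 1.69 times in shNC tumours and 2.48, 1.59 and 2.26 times in shFgf21 tumours. The sorted groups did not overlap, and among shFgf21 tumours replicate 2 lay below the shNC range while the other two lay above it. This ratio was formed after the values had been seen and was not tested. H2-D1 relative to H2-K1 stayed between 1.89 and 2.29 over the 11 libraries. Tap1 relative to Tap2 was 2.09, 1.93 and 1.77 in shNC sorted cells, 1.54 and 1.56 in shFgf21 sorted cells, 2.3, 1.48 and 2.25 in shNC tumours and 1.48, 2.06 and 2.16 in shFgf21 tumours.

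Beyond H2-K1 and H2-D1, the MHC holds non-classical class I genes. Of 15 such genes and relatives listed, 13 were tested in sorted cells, 8 were higher and 5 lower with shFgf21, none passed, and the median log2 difference was 0.233. H2-M2 had the smallest p, with a log2 difference of 1.25 ± 0.22 (edgeR adjusted p = 0.13). Its level was low, at 2.292, 2.594 and 2.685 CPM in shNC against 6.376 and 5.797 CPM in shFgf21 sorted cells. H2-Q7, H2-Q4 and H2-M3, which presents formylated peptides, were higher by 0.31 ± 0.11, 0.30 ± 0.10 and 0.27 ± 0.11 (adjusted p = 0.361, 0.332 and 0.42). In tumours 12 were tested, 7 were higher and 5 lower, none passed, and the median was 0.195.

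H2-Q6 and H2-Q7 set the 2 kinds of sample apart. H2-Q7 was at 339.9, 309.1 and 286.6 CPM in shNC sorted cells against 369.7 and 413.2 CPM in shFgf21 sorted cells. In shNC tumours it had 121, 23 and 20 counts, or 7.86, 1.11 and 1.01 CPM, and in shFgf21 tumours 4, 12 and 6 counts, or 0.231, 0.747 and 0.347 CPM. H2-Q6 was at 298 to 428.6 CPM in sorted libraries, with 149, 15 and 38 counts in shNC tumours and 22, 17 and 9 in shFgf21 tumours. Both were thus present in tumour libraries only at low counts, with shNC replicate 1 the highest. The shFgf21 tumours were lower by 2.90 ± 0.91 for H2-Q7 (adjusted p = 0.64) and by 2.10 ± 0.87 for H2-Q6 (adjusted p = 0.783) on the log2 scale. Between shNC sorted cells and shNC tumours the log2 difference was 6.62 ± 0.74 for H2-Q7 (adjusted p = 0.000301) and 6.48 ± 0.80 for H2-Q6 (adjusted p = 0.000533). The copies are close, with 17% and 17.9% of their 75-base words found in another gene. Leukocyte markers moved with them, summing to 1654 to 1839 CPM in sorted libraries and to 6.21 in the highest tumour library, shNC included, and their part was not tested. In the same contrast H2-K1 and H2-D1 differed by 0.44 and 0.43.

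**Figure D5:**
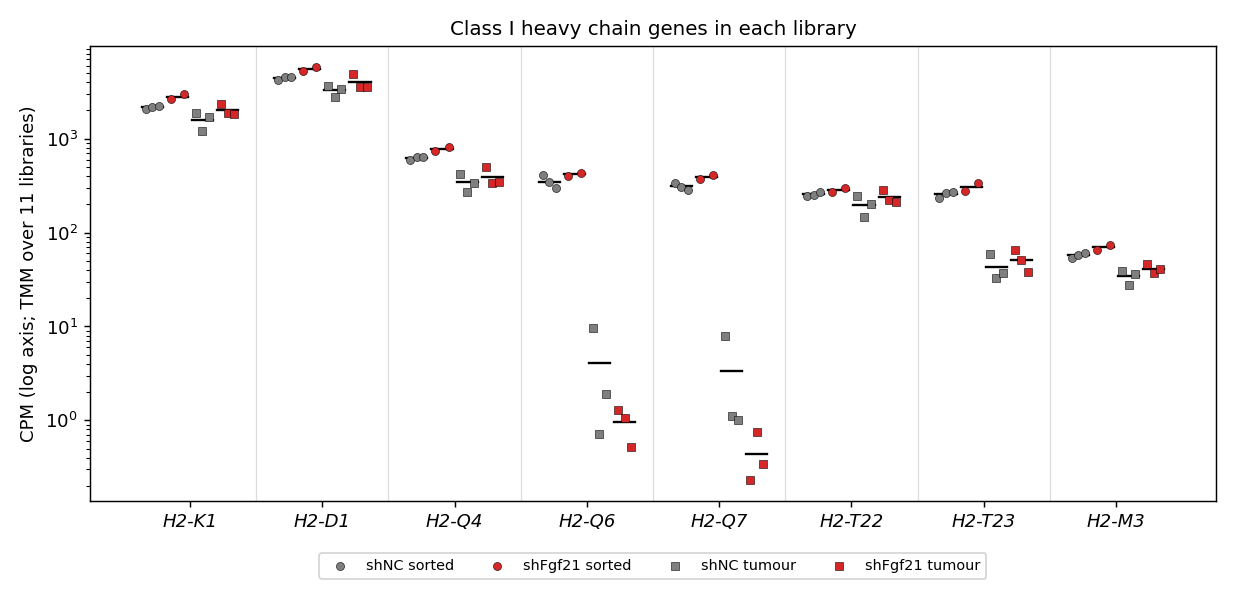
Level of 8 class I heavy chain genes in CPM (log axis, TMM over 11 libraries), with 1 point per library and a bar at each group mean, circles for sorted cells and squares for tumours, grey for shNC and red for shFgf21. H2-Q6 and H2-Q7 lie at 286.6 CPM or more in sorted libraries and at 9.68 CPM or less in tumour libraries, while H2-K1 and H2-D1 stay above 1000 CPM in all.

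The genes around the pathway were counted from lists, with none called in either knockdown comparison. The 9 genes of peptide loading and trimming had 8 higher and 1 lower in sorted cells (median log2 difference 0.135) and 5 higher and 4 lower in tumours (median 0.092). Among them Tapbpl, a tapasin relative that edits peptides, was higher by 0.47 ± 0.15 in sorted cells (adjusted p = 0.318) and by 0.52 ± 0.17 in tumours (adjusted p = 0.67). The chaperone Hspa5 was higher by 0.50 ± 0.20 in sorted cells (adjusted p = 0.405) and lower by 0.26 ± 0.12 in tumours (adjusted p = 0.83). Of the 14 subunits of the constitutive 20S core, 8 were higher in sorted cells (median 0.0159) and 11 in tumours (median 0.0727). Of 9 proteasome activator and assembly genes, 5 were higher in sorted cells (median 0.042) and 8 in tumours (median 0.18). Of these 9, the assembly genes Psmg2 and Psmg4 had the smallest p in sorted cells. Their log2 differences were -0.29 ± 0.11 and 0.34 ± 0.13 (edgeR adjusted p = 0.393 and 0.409). In sorted cells the activator subunits Psme1 and Psme2, which interferon gamma induces, had log2 differences of 0.15 ± 0.11 and 0.17 ± 0.13 (adjusted p = 0.648 and 0.674).

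Upstream, genes of the interferon gamma pathway differed in either direction. Of 14 listed 10 were higher in sorted cells (median 0.0783), and of 13 tested in tumours 7 were higher (median 0.00425). The ligand Ifng was at 96.95, 94.08 and 34.59 CPM in shNC against 25.43 and 33.89 CPM in shFgf21 sorted cells, a log2 difference of -1.36 ± 0.41 (edgeR adjusted p = 0.313). Its groups did not overlap, with 34.59 and 33.89 CPM as the nearest values, against 13.3% of all genes lower without overlap. Ifng was short of the threshold, and its part in the class I differences was not tested. T cell markers varied beside it. Cd3e was at 67.62, 58.04 and 32.28 CPM in shNC against 34.5 and 36.01 CPM in shFgf21 sorted cells, and Cd8a was at 100.8, 82.09 and 36.52 CPM against 35.21 and 57.15 CPM. The shNC library low in Ifng, replicate 3, was thus low in both markers, and their part in the Ifng difference was not tested. In tumour libraries Ifng was at most 0.195 CPM.

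Irf1, an interferon-induced factor that binds class I promoters, was at 217, 112.4 and 182.4 CPM in shNC tumours against 308.9, 300.9 and 293 CPM in shFgf21 tumours. It did not overlap, with a log2 difference of 0.81 ± 0.23 (adjusted p = 0.588). The 8 enhanceosome partners of Nlrc5 had 4 higher and 4 lower in each comparison, with medians of -0.0102 in sorted cells and 0.0487 in tumours, and Creb1 was lower in tumours by 0.51 ± 0.17 (adjusted p = 0.67).

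The median difference of the MHC class II genes was larger than that of the class I genes, which was not tested. In sorted cells 8 of 9 were higher with shFgf21, with a median of 0.753, and in tumours 7 of 7 tested, with a median of 0.995. The tumour median includes shNC replicate 2, which was far the lowest for Cd74. That gene was at 262.6, 39.3 and 191.1 CPM in shNC tumours against 365.5, 382.7 and 270.5 CPM in shFgf21 tumours. The class II median without that library was not computed. H2-Eb1, a class II beta chain, was higher by 1.08 ± 0.17 (adjusted p = 0.108) in sorted cells. Ciita, the class II counterpart of Nlrc5, was at 23.93, 32.95 and 28.09 CPM in shNC against 55.12 and 46.24 CPM in shFgf21 sorted cells, a log2 difference of 0.82 ± 0.16 (adjusted p = 0.162). In tumours Ciita was at 7.67, 2.26 and 10.4 CPM in shNC against 16.2, 13.3 and 13.8 CPM in shFgf21, a log2 difference of 1.08 ± 0.45 (adjusted p = 0.783). Ciita did not overlap in either comparison, while Nlrc5 overlapped in both, and whether they differed was not tested. The macrophage markers, all higher in shFgf21 sorted cells, stood beside the class II genes too, and their part was not tested.

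Likeness was measured as the correlation of log2 CPM, centred on each group's mean, with the mean centred profile of the 10 genes over 11 libraries. Among 10040 other genes with a mean of at least 10 CPM, Samhd1 followed most closely (r = 0.986), then H2-T22 (0.977), Il6ra (0.963), Trem2 (0.959) and Galns (0.950), and 46 genes reached 0.9. Samhd1 encodes a nucleotide hydrolase that restricts viruses, and H2-T22 a non-classical class I chain. Without shNC tumour replicate 2 these 5 correlations were 0.910 to 0.983. Of the 10 genes, each set against the mean of the other 9, H2-K1 (0.979), Psmb9 (0.972) and H2-D1 (0.917) followed the group best, and Nlrc5 (0.705) and B2m (0.638) least. The constitutive subunits stood at 0.099 for Psmb5, 0.138 for Psmb6 and 0.311 for Psmb7. The points share library, depth and scaling, and the values are descriptions.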

How the data were processed

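Raw counts of whole reads and FPKM values for each gene were deposited by the authors. Per the submitters' processing notes the genome was mm10, and total RNA was extracted with a Tianmo kit, per the labels' protocols. Not given in the sources used here are the aligner, counter, annotation release and strand setting. The deposited FPKM values equal counts divided by library total and a gene length, which for 97.4% of 9646 genes was the sum of all distinct exons within 1 base (GENCODE M21), with overlaps counted repeatedly. Levels between genes therefore used CPM per kb of merged exons.

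Counts were tested in R 4.3.3 with edgeR 4.0.16 (filterByExpr, TMM, quasi-likelihood F-test, Benjamini-Hochberg over all genes, threshold 0.05). The SE is the log2 difference over the root of F, and CPM used TMM factors over 11 libraries. Groups came from titles. Separate animals are not stated for the replicates, and the p-values then reflect only library-to-library spread, possibly technical. No pair of replicates agreed within sampling noise. Genes and lists were chosen with earlier results of these data known. Named are the 10 genes, Psmb5, Psmb6, Psmb7, the 5 most alike, and genes from the lists. A rule picked from each list up to 4 genes by smallest p in sorted cells and up to 2 in tumours. Not all of its picks are named, and those left out differed in either direction. A gene that this rule picks from the interferon gamma list is not reported here. Other names, such as the markers and the chains plotted, were chosen after values were seen. Alternatives were median-ratio size factors, other filters, DESeq2 1.42.0, limma 3.58.1 voom with quality weights, a joint fit, a replicate block and leaving out each library. Tests were checked on simulated data. A count of 0 allows up to 3 counts, 0.157 to 0.201 CPM, covering counting error only.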

Additional observations from a re-analysis of the deposited data

How the results depend on the processing

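In both knockdown comparisons and their interaction, none of the 10 genes was called under any alternative except by DESeq2 in sorted cells, which called 1 (Tapbp). Over all genes, DESeq2 called 232 against 13 in sorted cells and 115 against 5 in tumours. Apart from the replicate block, other alternatives called 1 to 16 in sorted cells and 1 to 26 in tumours with all libraries, and leaving out a library gave 0 to 34 and 0 to 8. Between shNC sorted cells and shNC tumours, 3 of the 10 were called, but 5 with a minimum mean of 5 CPM, 5 by DESeq2 (32.3% of all genes), 8 by voom, 5 with all groups in 1 fit, and 1 to 7 when a library was left out. The immunoproteasome ratio differed by 0.204 to 0.247 in sorted cells and 0.178 to 0.638 in tumours when a library was left out.

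Single genes that changed sign were small or variable. In tumours, leaving out a library gave -0.101 to 0.17 for B2m, -0.0902 to 0.516 for Tap1 and -0.0212 to 0.295 for Nlrc5, and voom gave -0.0926 for B2m. The interaction, leaving out a library, was -0.253 to 0.0166 for B2m, -0.0461 to 0.205 for H2-D1, -0.104 to 0.194 for H2-K1, -0.202 to 0.108 for Nlrc5, -0.239 to 0.25 for Psmb10, -0.246 to 0.139 for Psmb9, -0.339 to 0.262 for Tap1, -0.0783 to 0.335 for Tap2 and -0.261 to 0.153 for Tapbp. Voom gave an interaction of 0.0045 for B2m, 0.0816 for Psmb9, 0.124 for Psmb10 and 0.0451 for Nlrc5. The cause was not tested. No gene changed sign in sorted cells or between the kinds of sample under the alternatives run.

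The labels do not say that the replicate numbers pair the tumours, and only numbers 1 and 2 occur in both groups. Deviations correlated at 0.165 for number 1 and -0.154 for number 2, and at -0.252 to 0.165 between unlike numbers. So few values cannot decide whether the samples were paired, and the block fit rests on those 2 shared numbers. With the number as a replicate block, 0 of the 10 and 131 of all genes were called, with a median of 0.441 over the 10. The pseudocount alternatives were not run, because counts were available. Without the filter on low counts no gene of the pathway lists was called in either knockdown comparison. With 2 or 3 libraries a group, the exact tests cannot go below p = 0.1.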
